A study of Homo sapiens with 4 samples.

Results

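ARID3A, FOXE1 and PLAGL2 are 3 transcription factors with more ribosome footprints in Hermes 4B melanocytes that received an siRNA against CDH3-AS1 than in those that received a control siRNA. They are 3 of the 14355 gene names in the deposited tables and 3 of the 10469 that passed the filter on low counts. The 3 genes were chosen by their coding-sequence footprints, because these were higher after CDH3-AS1 siRNA in both batches. Every value of that contrast given for them is therefore a description without a test.

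Hermes 4B is a human melanocyte line that was immortalised for culture; melanocytes are the pigment cells of the skin, and the genotype is given as WT. Its medium held the phorbol ester TPA, endothelin-1, cholera toxin and stem cell factor, so both groups share those agents. Cells received 25 to 50 nM of siRNA, which was either a control or aimed at CDH3-AS1, a long noncoding RNA that lies antisense to CDH3, the P-cadherin gene. Ribosomes were held in place with 100 µg/mL cycloheximide and the fragments they protect were sequenced, with 2 libraries per siRNA, 1 in each of 2 batches. The labels do not name separate cultures, and p-values therefore measure only the spread between these 4 libraries, which may be technical. CDH3-AS1 was not among the gene names listed, so its level and its knockdown could not be checked. CDH3 itself had 293 and 322 CPM (coding-sequence reads per 1000000) in the controls and 179 and 192 CPM with CDH3-AS1 siRNA. With footprints alone a change in mRNA and a change in its translation cannot be told apart.

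The genes come from separate families of DNA-binding proteins. ARID3A, also named Bright, binds AT-rich DNA through its ARID domain, is best known from B cells, and was also isolated as a partner of the cell-cycle factor E2F1. FOXE1 is a forkhead factor needed for the thyroid and for closure of the palate, and acts downstream of hedgehog signalling in hair follicles. PLAGL2 is a zinc finger protein of the PLAG family with oncogenic activity, linked to WNT signalling and to stem cells of the intestine. None of them belongs to the usual list of melanocyte lineage factors.

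Each gene was listed with 1 transcript, as were 2181 of the tested genes (20.8%), so no choice between transcripts entered their values. ARID3A lies on chromosome 19 at chr19:925732-975939, FOXE1 on chromosome 9 at chr9:97853226-97856717 and PLAGL2 on chromosome 20 at chr20:32192504-32207743 (GRCh38.p14). The ARID3A and PLAGL2 transcripts had long 3′ UTRs of 3874 and 3948 bases, at the 87.5th and 87.8th percentile of the tested genes, whose median was 1148 bases. FOXE1 stood out at the other end, with a 5′ UTR of 689 bases at the 95.6th percentile against a median of 155 bases.

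The DNA just upstream of FOXE1 and PLAGL2 is shown for reference, and nothing about the rise of the genes is read from it. The PLAGL2 stretch is shared with a neighbour that serves as a comparison further on. The RefSeq table of promoters (GRCh38.p14) matched FOXE1 and PLAGL2 but held no entry for ARID3A. Capitals mark GC boxes, GGGCGG on either strand.
FOXE1, chr9:97852976-97853225, plus strand, 250 bases before the start: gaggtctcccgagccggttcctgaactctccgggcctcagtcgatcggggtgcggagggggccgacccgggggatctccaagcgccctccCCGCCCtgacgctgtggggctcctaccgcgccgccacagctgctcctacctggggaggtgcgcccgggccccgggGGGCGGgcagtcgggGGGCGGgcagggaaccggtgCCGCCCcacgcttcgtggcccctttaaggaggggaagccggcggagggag
PLAGL2, chr20:32207744-32207879, minus strand, 136 bases between its start and that of POFUT1: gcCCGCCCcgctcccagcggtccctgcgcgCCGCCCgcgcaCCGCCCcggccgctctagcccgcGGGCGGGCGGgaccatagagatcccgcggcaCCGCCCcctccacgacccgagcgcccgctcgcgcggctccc

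FOXE1 had 4 GC boxes in this window and PLAGL2 had 6, a pair of which overlap. A GC box is common, with at least 1 in 64.9% of the 11321 promoters of the same 250 bases among genes in the tables. Both windows were rich in G and C, at 75.6% for FOXE1 and 80.0% for the full 250 bases of PLAGL2, against a median of 64.4%. Other motifs were searched on both strands and were not in either full window. These were the CCAAT box, spelled CCAAT and present in 35.1% of the promoters, and the TATA box, spelled TATAAA and present in 6.43%. The E-box searched was CACGTG (8.65% of promoters), the AP-1 site was TGANTCA (4.10%) and the TEAD site was GGAATG (9.61%). An E2F site was taken as TTTCCCGC (2.14%), and an interferon response element was the letters GAAA on each side of any NN (2.46%).

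Sequencing depth was uneven. The controls of batches 1 and 2 had 2034854 and 5994485 reads, and the libraries with CDH3-AS1 siRNA had 6759850 and 2858835. All 10 melanocyte markers had reads in every library, summing to between 21655 and 40329 CPM. Control siRNA replicate 1 stood apart, with 10 of 13 skeletal muscle markers at 3804 CPM in sum against at most 7.25 CPM elsewhere, and 4 of 7 fibroblast markers at 493 CPM against at most 5.36 CPM. FOXE1 is also expressed in skin epithelium, and the 8 keratinocyte markers summed to between 8.19 and 35.6 CPM, with at most 3 of them detected in a library and KRT10 giving most of the sum. KRT5, KRT15 and DSG3 had no reads. Leaving the muscle, fibroblast and keratinocyte markers out of the library totals left the log2 fold changes at 1.80 for ARID3A, 1.54 for FOXE1 and 2.11 for PLAGL2, the same values within rounding. These markers are so small a part of the reads that this step could hardly have moved the values. It also takes away no reads of the 3 genes that came from other cells, so it does not test for such reads.

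ARID3A had 15 coding-sequence reads in control siRNA replicate 1 and 215 in CDH3-AS1 siRNA replicate 1, or 8.14 and 33.9 CPM. In batch 2 it had 67 and 98 reads, or 11.9 and 37.6 CPM. The gene was chosen for its rise in each batch, so nothing is read from the order of the 4 libraries. The level was 4.16-fold that of the control in batch 1 (95% interval 2.47 to 7.56) and 3.15-fold in batch 2 (2.29 to 4.37), where the intervals are exact and cover counting error only. Group means were 10.0 ± 2.66 CPM (SD, n = 2) and 35.7 ± 2.61 CPM, and edgeR's log2 fold change was 1.79 (SE 0.40).

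FOXE1 was the best covered of the 3 genes. It had 38 and 335 reads in batch 1, or 20.6 and 52.8 CPM, control first, and 91 and 135 reads in batch 2, or 16.2 and 51.7 CPM. Group means were 18.4 ± 3.15 CPM (SD, n = 2) and 52.2 ± 0.735 CPM. FOXE1 too was chosen for its rise in each batch, and an SD of 2 libraries says little about their spread. The fold was 2.56 in batch 1 (1.83 to 3.68) and 3.20 in batch 2 (2.43 to 4.22), and the log2 fold change was 1.54 (SE 0.35).

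PLAGL2 had the fewest reads of the 3 genes. It had 9 and 169 reads in batch 1, or 4.88 and 26.6 CPM, and 23 and 35 reads in batch 2, or 4.09 and 13.4 CPM. The controls were alike, whereas CDH3-AS1 siRNA replicate 1 stood well above replicate 2, so the group means of 4.49 ± 0.564 CPM (SD, n = 2) and 20.0 ± 9.34 CPM differ in their spread. The fold was 5.45 in batch 1 (2.80 to 12.1) and 3.28 in batch 2 (1.89 to 5.82), with intervals that overlap. The log2 fold change was 2.11 (SE 0.51), the largest of the 3 over all libraries, but 1.53 without CDH3-AS1 siRNA replicate 1, where ARID3A had 1.88 and FOXE1 1.53. Without control siRNA replicate 2 it was 2.00, where ARID3A had 2.12. In batch 2 alone, where muscle markers summed to 5.51 and 3.45 CPM, the 3 folds ran from 3.15-fold for ARID3A to 3.28-fold for PLAGL2.

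**Figure D1:**
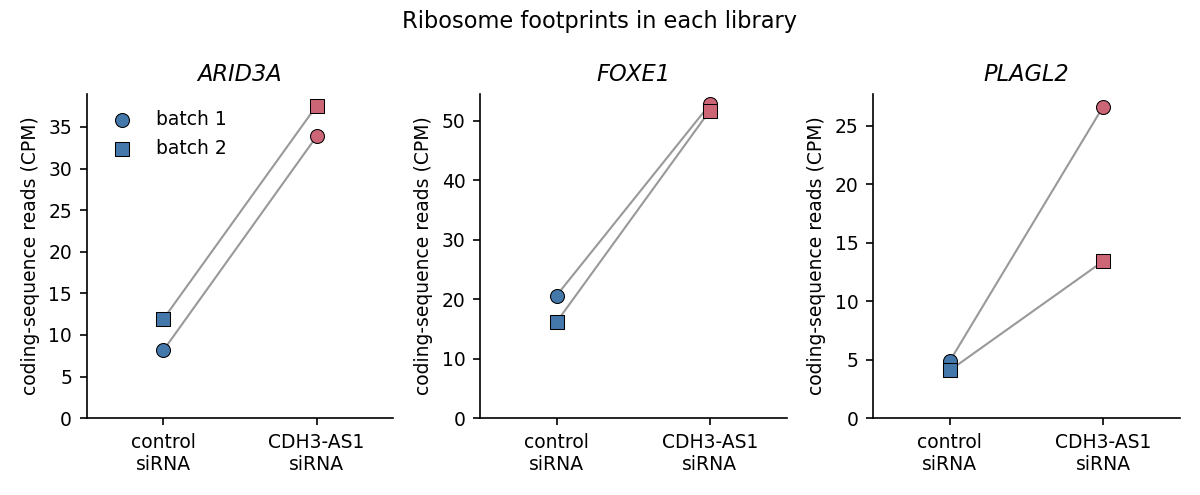
Coding-sequence reads in CPM (vertical axis, from 0) of ARID3A, FOXE1 and PLAGL2 with control siRNA and CDH3-AS1 siRNA; each point is 1 library, circles are batch 1, squares batch 2, and lines join libraries of a batch. Every line goes up, and PLAGL2 with CDH3-AS1 siRNA spans 13.4 to 26.6 CPM.

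Because the genes were chosen on this contrast, its counts over all genes are background only. By edgeR's quasi-likelihood test 0 of the 3 genes and 0 of all tested genes were called higher without the block (0%), with 225 genes at an unadjusted p under 0.05. With the batch as a replicate block all 3 were called higher, as were 97 genes in all (0.927%). DESeq2 called 0 of the 3 higher without the block, where it called 1 gene in all (0.00955%), and 2 of the 3 with it, where it called 38 (0.363%). A rise of at least 1 (log2) in each batch was met by the 3 genes and by 88 of the tested genes in all (0.841%), and nothing about the 3 genes is read from these shares.

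**Figure D2:**
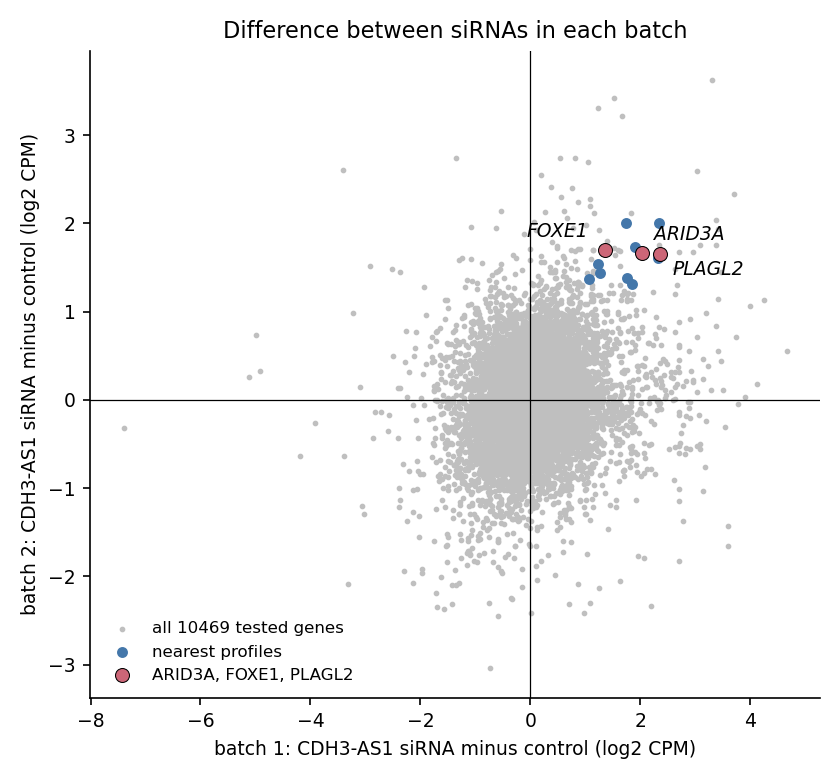
Difference in log2 CPM between CDH3-AS1 siRNA and control in batch 1 (horizontal) and batch 2 (vertical) for all 10469 tested genes (grey), ARID3A, FOXE1 and PLAGL2 (red) and the 9 genes with the nearest profiles (blue). The red points lie at 1.37 to 2.37 in batch 1 and 1.65 to 1.70 in batch 2, and the bulk of genes lies around 0.

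Per length of coding sequence, FOXE1 was the highest of the 3 and PLAGL2 the lowest with either siRNA. In the authors' RPKM (reads per kilobase and 1000000 reads of the library), control means were 15.1 ± 2.20 for FOXE1, 5.21 ± 1.51 for ARID3A and 2.77 ± 0.283 for PLAGL2 (SD, n = 2 each). With CDH3-AS1 siRNA they were 43.1 ± 1.47, 18.5 ± 0.983 and 12.5 ± 6.05, so ARID3A and PLAGL2 differed by no more than about the SD of PLAGL2. These levels lay mostly in the lower part of the range. Among all tested genes, PLAGL2 stood at the 8.57th and 5.91st percentile in control replicates 1 and 2 and at the 37.9th and 21.7th in the CDH3-AS1 siRNA libraries. ARID3A moved from the 12.0th and 16.0th percentile to the 39.5th and 42.1st, and FOXE1 from the 38.2nd and 31.0th to the 65.0th and 64.2nd.

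Whether the genes also differed between the batches was not part of their choice and was tested with the siRNA as a covariate. None of the 3 passed edgeR's quasi-likelihood test of batch 2 against batch 1, where 1657 of all tested genes did (15.8%). DESeq2 also called 0 of the 3, against 694 of all tested genes (6.63%). In edgeR's test 0 of the 3 had an unadjusted p under 0.05, against 2945 genes in all (28.1%). ARID3A differed by a log2 fold change of 0.32 (SE 0.37, 95% interval -0.41 to 1.05, adjusted p = 0.622) and FOXE1 by -0.14 (SE 0.33, interval -0.78 to 0.50, adjusted p = 0.834), with edgeR. PLAGL2 had the largest difference, -0.66 (SE 0.46, interval -1.55 to 0.23, adjusted p = 0.357 with edgeR). Missing the threshold does not show that the levels were equal. Within the CDH3-AS1 siRNA libraries PLAGL2 in batch 2 was 0.504 of its level in batch 1 (counting interval 0.340 to 0.728), and within the controls 0.837 (0.373 to 2.05). The count of 1657 was 538 without the siRNA covariate. Fits that also left out 1 library gave 287 and 29 when it was the control of batch 1 or batch 2. They gave 1280 and 120 when it was the CDH3-AS1 siRNA library of batch 1 or batch 2. The fit with the covariate has 1 residual degree of freedom per gene and takes its variance from the spread over all genes.

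FOXE1 carried many footprints upstream of its coding sequence. Its 5′ UTR held 41.5% of its 5′ UTR and coding reads in control siRNA replicate 1 (95% Clopper-Pearson interval 29.4 to 54.4) and 37.7% in replicate 2 (29.8 to 46.1). With CDH3-AS1 siRNA the share was 24.5% in replicate 1 (20.6 to 28.8) and 37.8% in replicate 2 (31.3 to 44.6). Over all 4 libraries it was 31.3%, which ranked 504th of 10248 genes with at least 50 such reads, whose median was 3.13%. Per length, the FOXE1 5′ UTR was about as densely covered as the coding sequence in 3 libraries, with ratios of 0.984 to 1.16. In CDH3-AS1 siRNA replicate 1 the ratio was 0.530.

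PLAGL2 and ARID3A had smaller counts there. Per length, the PLAGL2 5′ UTR was covered more densely than its coding sequence in 3 libraries, with ratios of 1.79 to 3.05, and at 0.732 in CDH3-AS1 siRNA replicate 1. For ARID3A the ratio was 0.820 to 1.22 in 3 libraries and 0.114 in CDH3-AS1 siRNA replicate 1. PLAGL2 had 4, 18, 6 and 12 reads in its 5′ UTR in control replicate 1, CDH3-AS1 siRNA replicate 1, control replicate 2 and CDH3-AS1 siRNA replicate 2. That was 14.5% of its 276 reads in both regions, at the 83.3rd percentile. ARID3A had 3, 4, 9 and 14 reads in the same order, or 7.06% of 425 reads, at the 68.2nd percentile. The 3′ UTRs, which ribosomes do not normally translate, held from 2 to 23 reads of each gene per library. For PLAGL2 this was 6.45 to 27.8% of its reads in all 3 regions. For ARID3A it was 1.35 to 14.3%, and for FOXE1 3.1 to 4.6%. Over whole libraries the coding sequence alone held 90.5 to 93.9% of all reads. In CDH3-AS1 siRNA replicate 1 PLAGL2 had 23 reads in its 3′ UTR and 18 in its 5′ UTR.

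The 5′ UTR levels of the 3 genes are given by batch. In the authors' RPKM the FOXE1 5′ UTR was at 19.3 with the control and 23.4 with CDH3-AS1 siRNA in batch 1, and at 13.3 and 41.6 in batch 2. The PLAGL2 5′ UTR was at 9.06 and 12.3 in batch 1 and 4.61 and 19.3 in batch 2. ARID3A was at 5.05 and 2.03 in batch 1, where its coding sequence went from 4.14 to 17.9, and at 5.14 and 16.8 in batch 2. Relative to the library total, the fold of the 5′ UTR in batches 1 and 2 was 1.22 (counting interval 0.791 to 1.93) and 3.13 (2.19 to 4.48) for FOXE1. It was 1.35 (0.446 to 5.50) and 4.19 (1.46 to 13.6) for PLAGL2, and 0.401 (0.0679 to 2.74) and 3.26 (1.32 to 8.54) for ARID3A.

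The 5′ UTR share of whole libraries went from 5.98% to 3.81% of all reads in batch 1 and from 5.08% to 7.09% in batch 2. Scaled to the 5′ UTR total of each library in place of all reads, so that this shift is taken out, the FOXE1 folds were 1.91 (1.24 to 3.02) and 2.24 (1.57 to 3.21). Its coding-sequence folds, by which it was chosen, were 2.56 (1.83 to 3.68) and 3.20 (2.43 to 4.22). The intervals of the 2 regions overlap in both batches, and the difference was not tested. Scaled the same way, the PLAGL2 5′ UTR folds were 2.12 (0.700 to 8.63) and 3.00 (1.04 to 9.75). ARID3A had 0.629 (0.106 to 4.30) and 2.34 (0.942 to 6.12), on 3 and 4 reads in batch 1.

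**Figure D3:**
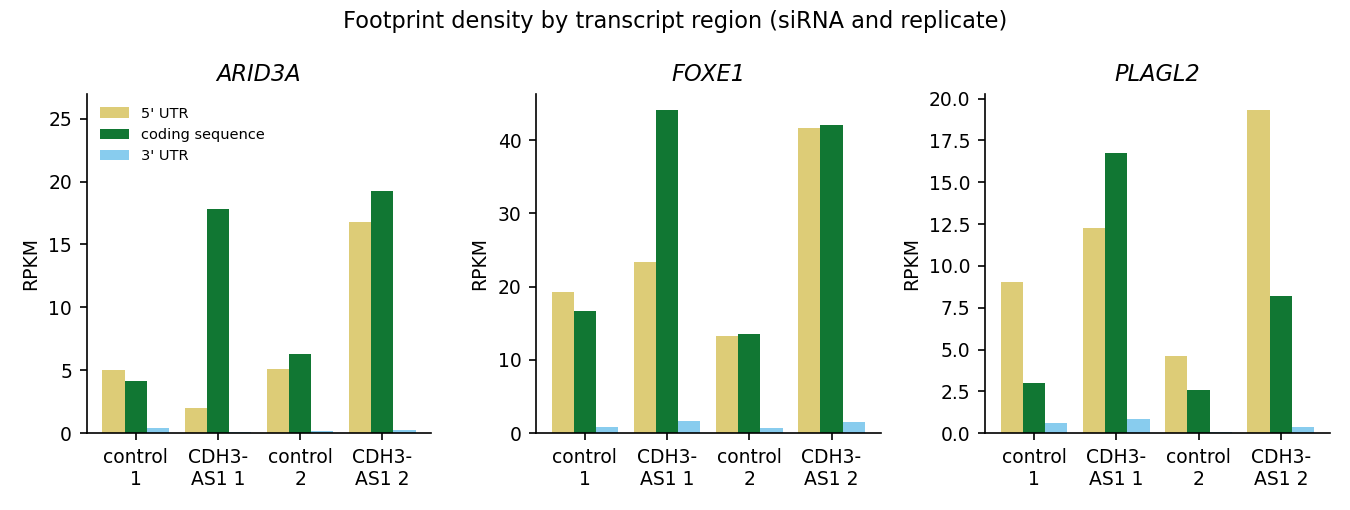
Footprint density in RPKM (vertical axis, from 0) of the 5′ UTR, coding sequence and 3′ UTR of ARID3A, FOXE1 and PLAGL2; each group of bars is 1 library, named by siRNA and replicate. The 5′ UTR of FOXE1 is about level with its coding sequence in 3 libraries (ratio 0.984 to 1.16) and lower in CDH3-AS1 siRNA replicate 1 (0.530).

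The genes whose log2 CPM profiles over the 4 libraries were nearest to each factor were named by Euclidean distance after centring each profile on its mean. Nearness to a member means a rise in both batches, so these values are also a description. ARID3A was nearest to CDKN2B, an inhibitor of the cell-cycle kinases CDK4 and CDK6 (distance 0.28), then to INHBA, the activin A subunit (0.33), and SEMA3B, a secreted semaphorin (0.34). CDKN2B had 3.26 and 5.15 CPM in control replicates 1 and 2 and 12.8 and 13.0 CPM with CDH3-AS1 siRNA, and INHBA had 36.9 and 52.1 CPM against 184 and 204 CPM.

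FOXE1 was nearest to ITGA5, a fibronectin receptor subunit (0.17), TNFSF9, the ligand of the T-cell receptor 4-1BB (0.25), and the kinase PLK2 (0.32). TNFSF9 had 9.77 and 9.06 CPM in the controls against 23.8 and 24.5 CPM, and ITGA5 had 526 and 398 CPM against 1202 and 1118 CPM. PLAGL2 was nearest to OSR1, a zinc finger factor of the mesoderm (0.45), STARD13 (0.48), and TAGLN, an actin-binding protein (0.50). OSR1 rests on 1 and 4 reads in the controls and 29 and 8 with CDH3-AS1 siRNA. Between the factors themselves the distance was 0.70 for ARID3A and FOXE1, 0.82 for FOXE1 and PLAGL2 and 0.96 for ARID3A and PLAGL2.

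No tested relative of the 3 factors was called with all 4 libraries, and 1 forkhead gene was called without control siRNA replicate 2. Of 14 other ARID family genes 12 were tested, and 0 were called in either direction with or without the block. Their median log2 fold change was 0.10, against -0.03 over all tested genes. KDM5B, a histone H3 lysine 4 demethylase with an ARID domain, had the largest difference, with 70.0 and 68.8 CPM in the controls and 122 and 104 CPM with CDH3-AS1 siRNA. Its log2 fold change was 0.74 (SE 0.31) without the block and 0.73 (SE 0.27, edgeR adjusted p = 0.202) with it. ARID5B stood at 0.45 (SE 0.33) and ARID2, a subunit of the PBAF chromatin remodeller, at 0.18 (SE 0.32).

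Of 40 other forkhead genes 28 had reads and 18 were tested, and again 0 were called, with a median of 0.09. FOXO3, a factor restrained by insulin signalling, had 7.06 and 7.82 CPM in the controls and 13.7 and 15.3 CPM with CDH3-AS1 siRNA. Its log2 fold change was 0.95 (SE 0.44) without the block and 0.96 (SE 0.46, edgeR adjusted p = 0.447) with it. FOXO1 had 52.1 and 78.0 CPM against 102 and 122 CPM, with 0.81 (SE 0.35) without the block and 0.84 (SE 0.28, edgeR adjusted p = 0.101) with it. FOXD3, a factor of the neural crest from which melanocytes arise, had a log2 difference of 0.15 in batch 1 and 1.40 in batch 2. Both other PLAG genes were too low to test. PLAG1 had 0 and 2 coding-sequence reads in control replicates 1 and 2 and 11 and 4 with CDH3-AS1 siRNA, and PLAGL1 had 1 read in all libraries together.

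Genes linked to each factor were taken from lists. Of 23 E2F, RB and p53 genes tied to ARID3A, 21 were tested and 0 called, with 5 higher and 7 lower in both batches and a median of -0.14. The log2 fold change was 0.93 (SE 0.52) for E2F5, -0.84 (SE 0.41) for the RB relative RBL2 and 0.32 (SE 0.44) for CDKN1A, the p53 target p21. Of 22 thyroid and hedgehog genes linked to FOXE1 only 6 were tested, all hedgehog or palate genes, with a median of 0.25 and 0 called. For the hedgehog receptor PTCH1 it was 0.24 (SE 0.41), and for GLI2, a hedgehog effector upstream of FOXE1 in hair follicles, 0.32 (SE 0.39).

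Of 12 PLAGL2 targets 5 were tested, with a median of -0.28. With the block 1 was called higher, against 97 of all tested genes (0.927%). The called gene was FZD2, a WNT receptor, with 47.8 and 84.9 CPM in batch 1 and 18.1 and 42.5 CPM in batch 2, control first. Its log2 fold change was 1.02 (SE 0.55) without the block and 1.05 (SE 0.31, edgeR adjusted p = 0.0407) with it. The lung surfactant gene SFTPC was in the same list and had 126 and 170 reads in batch 1 and 4 and 0 reads in batch 2, control first. Its log2 fold change of -1.17 (SE 1.78) was not called.

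The microRNA let-7 is known to hold down ARID3A and PLAGL2, so other known let-7 targets were set beside them. Human let-7a is shown because its seed, bases 2 to 8 in capitals, is the part that pairs with targets.
hsa-let-7a-5p: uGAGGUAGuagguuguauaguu

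Of 30 other let-7 targets 22 were tested, with a median log2 fold change of 0.00, 8 higher and 4 lower in both batches. With the block 1 was called higher, against 97 of all tested genes (0.927%). It was LRIG3, a transmembrane leucine-rich repeat protein, with 11.9 and 14.2 CPM in the controls and 37.5 and 30.7 CPM with CDH3-AS1 siRNA. LRIG3 had 1.38 (SE 0.37) without the block and 1.37 (SE 0.37, edgeR adjusted p = 0.0175) with it. The log2 fold change was 0.91 (SE 0.38) for FIGN, an AAA ATPase, and 0.57 (SE 0.47) for the receptor IGF1R. HMGA1, a chromatin protein, had -0.15 (SE 0.44). Over all tested genes 2771 (26.5%) were higher and 2914 lower in both batches.

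**Figure D4:**
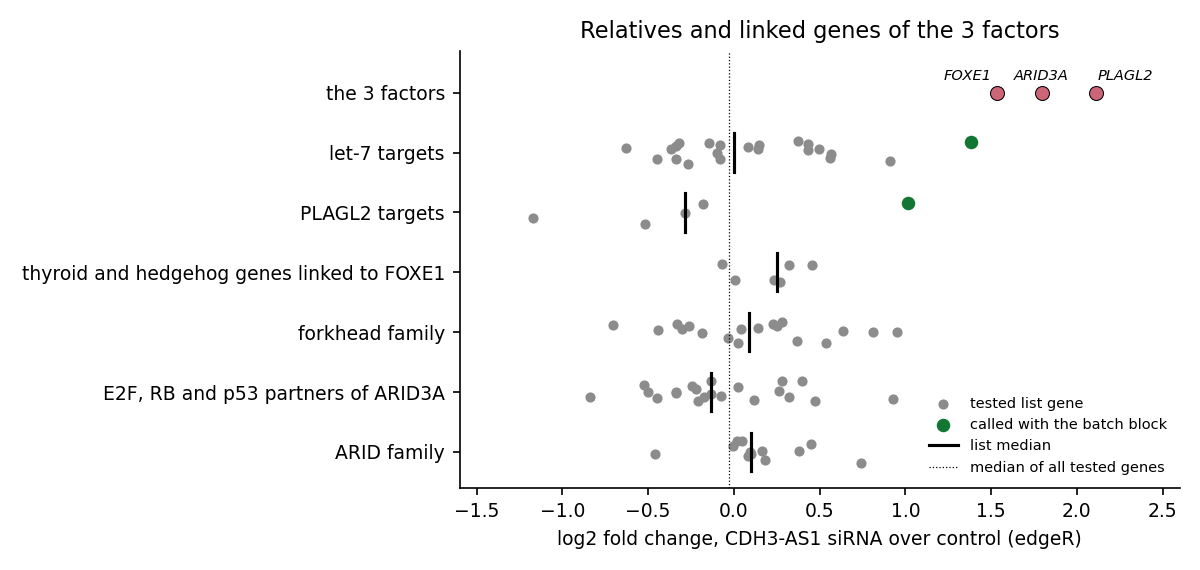
edgeR log2 fold change (horizontal axis) of the tested genes of each list and of the 3 factors (red); each dot is 1 gene, green dots were called with the batch block, black bars are list medians, and the dotted line is the median of all tested genes (-0.03). List medians lie between -0.28 and 0.25, and the 3 factors, which were chosen for their rise, between 1.54 and 2.11.

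Genes beside the 3 factors on the chromosome were set beside them. Of 29 tested genes within 500 kb of ARID3A 2 were called higher with the block, against 97 of all tested genes (0.927%), and 0 lower, against 73. The median log2 fold change of the 29 was 0.06. The called neighbours were FSTL3, which binds activin, and CNN2, an actin-binding calponin. FSTL3 had 1.08 (SE 0.50) without the block and 1.07 (SE 0.31, edgeR adjusted p = 0.0397) with it. CNN2 had 0.78 (SE 0.41) without the block and 0.84 (SE 0.24, edgeR adjusted p = 0.0305) with it. The nearest tested genes on each side, R3HDM4 and WDR18, had -0.47 (SE 0.43) and 0.21 (SE 0.39). Of 10 genes around FOXE1 0 were called, with a median of -0.07, and the nearest on each side, XPA and TRMO, had -0.15 (SE 0.59) and 0.10 (SE 0.38).

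PLAGL2 and POFUT1, which encodes an O-fucosyltransferase of Notch receptors, start 137 bases apart and are read in opposite directions. The stretch between them is the PLAGL2 sequence printed above. POFUT1 had 84.1 and 65.5 CPM in batch 1 and 58.5 and 55.2 CPM in batch 2, control first, a log2 fold change of -0.19 (SE 0.34) where PLAGL2 had 2.11. On the other side TM9SF4 had 0.28 (SE 0.31). Of the 8 genes within 500 kb 0 were called with or without the block, and their median was 0.11.

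**Figure D5:**
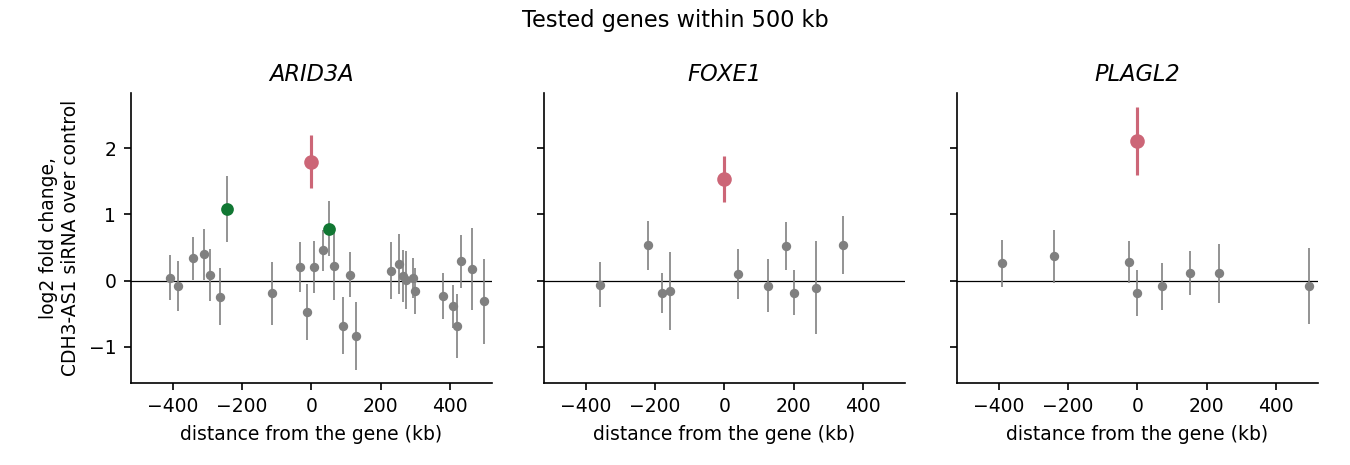
edgeR log2 fold change (vertical axis, bars are SE) of tested genes against their distance from ARID3A, FOXE1 and PLAGL2 in kb (0 for the factor itself, in red); green points were called with the batch block. The neighbours have medians of 0.06, -0.07 and 0.11, and the factors, which were chosen for their rise, stand at 1.79, 1.54 and 2.11.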

How the data were processed

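Ribosome footprints of 4 libraries were analysed. Per the file headers, the deposited tables give the count of reads in the 5′ UTR, coding sequence and 3′ UTR of each transcript, with lengths, and RPKM values by the authors, which on checking were scaled to all reads of the library. The submitters' processing notes name hg38 and DESeq2; the sources used here do not name the aligner, annotation, strand setting or filters. Coding-sequence counts were summed by gene name. Genes passing edgeR's filterByExpr (minimum count 10, minimum total 15) were tested across all genes with edgeR 4.0.16 (TMM, quasi-likelihood test, prior count 2, Benjamini-Hochberg, threshold 0.05) in R 4.3.3. The fit with the replicate block and the batch contrast were tested on simulated data, and the siRNA fit without the block was not. DESeq2 1.42.0 and limma 3.58.1 on log2(RPKM + 1) were alternatives.

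Libraries of the same number share a batch, per the labels, and their deviations from the group means correlated across genes (r = 0.584), so they are paired. A replicate block for batch was fitted too, and its values stand where a call changes. CPM are per 1000000 coding-sequence reads, and 3 reads stood at 0.473 to 1.63 CPM. Within-batch log2 differences use log2 CPM with a prior count of 2. Intervals are 95% and cover counting error only, except those of the batch contrast, which come from edgeR's SE. With 2 libraries against 2, an exact permutation test cannot give a two-sided p under 0.333. The 3 genes and all lists were chosen with earlier results of these data known. Genes named were the 3 factors, CDH3, the 3 nearest profiles of each (mean reads at least 10), list genes called with the block, up to 4 per list that differed by at least 0.5 (log2) the same way in both batches, and the nearest or called neighbours; 1 list gene that met this rule is not reported here. ARID2, ARID5B, the marker genes at 0, FOXD3, CDKN1A, PTCH1, GLI2 and HMGA1 were named after their values were seen, for their known roles. Of 14355 gene names 13900 matched the NCBI table of GRCh38.p14.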

Additional observations from a re-analysis of the deposited data

Results flagged for a closer look

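The 5′ UTR share of the reads in the 5′ UTR and coding sequence was lower with CDH3-AS1 siRNA in batch 1 and not in batch 2 for all 3 genes, and the difference between the batches was not tested. With CDH3-AS1 siRNA minus control, ARID3A differed by -14.8 percentage points in batch 1 and 0.658 in batch 2. FOXE1 differed by -17.0 and 0.117 percentage points, and PLAGL2 by -21.1 and 4.84. In batch 2 the counting intervals of the control and CDH3-AS1 siRNA shares overlap for all 3 genes. In batch 1 the counting intervals of the control and CDH3-AS1 siRNA shares also overlap for ARID3A and PLAGL2. Only those of FOXE1 are apart, at 29.4 to 54.4% with the control and 20.6 to 28.8% with CDH3-AS1 siRNA. Overlap of such intervals does not show that the shares were equal within counting error. Every share counts coding-sequence reads as well as 5′ UTR reads, and the genes were chosen for a rise in their coding-sequence reads. Each batch has 1 library per siRNA, and the batch 1 control had 13 reads of PLAGL2 and 18 of ARID3A in these regions. The share over whole libraries went from 6.19% to 3.90% in batch 1 and from 5.13% to 7.21% in batch 2, and its part in the shares of the 3 genes was not tested.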

How the results depend on the processing

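The siRNA contrast over all genes gave 0 calls in edgeR and 170 with the replicate block for batch. It gave 52 without a filter on low counts, 2 with DESeq2 and 57 with DESeq2 and the replicate block, and 0 to 73 when 1 library was left out, the 73 without control siRNA replicate 2. The log2 fold changes of the 3 genes kept their direction under every alternative run. They were 1.61 to 2.12 for ARID3A, 1.38 to 1.73 for FOXE1 and 1.53 to 2.50 for PLAGL2 when 1 library was left out, and 1.82, 1.54 and 1.98 with the replicate block. With reads of all 3 regions FOXE1 had 1.34. Leaving the marker genes of other cell types out of the totals was chosen after seeing the data.

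The batch contrast gave 1657 calls, 538 without the siRNA covariate, 694 with DESeq2 and 29 to 1280 when 1 library was left out. Fits that leave out 1 library have no siRNA covariate and so mix siRNA with batch. In them the log2 difference between batches was -0.86 to 1.54 for ARID3A, -1.20 to 0.72 for FOXE1 and -1.91 to 0.73 for PLAGL2. It turned for ARID3A without control siRNA replicate 1 (-0.51) or CDH3-AS1 siRNA replicate 2 (-0.86). It turned for FOXE1 without CDH3-AS1 siRNA replicate 1 (0.72) or control siRNA replicate 2 (0.49), and for PLAGL2 without CDH3-AS1 siRNA replicate 1 (0.73). The median of the forkhead list was -0.11, and that of the thyroid and hedgehog list -0.06, without the filter; with 1 library left out the list medians were -0.64 to 0.40 for PLAGL2 targets, -0.20 to 0.45 for forkhead, -0.21 to 0.46 for thyroid and hedgehog, -0.12 to 0.07 for E2F, RB and p53, 0.16 to 0.43 for ARID and 0.01 to 0.22 for let-7 targets. Reads were few for PLAGL2 and for all 5′ UTR counts of ARID3A and PLAGL2, which limits what these values can show.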
